A study of Mus musculus with 10 samples.

Results

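The angiogenic growth factors are described here as 10 genes, Vegfa, Vegfb, Vegfc, Vegfd, Pgf, Angpt1, Angpt2, Angptl4, Fgf2 and Hgf, chosen by name. They were taken as every probe set that the array annotation assigned to 1 of these symbols alone, which gave 20 of 45101 probe sets and 10 of 18193 genes. The cells were Lewis lung carcinoma cells, a mouse lung tumour line of the C57BL/6 strain, that stably carried either TDAG8, an acid-sensing G protein-coupled receptor encoded by Gpr65, or the control vector. They are called the TDAG8 line and the control line. Both lines were held without serum for 12 h in medium with bovine serum albumin at pH 7.4 and were then given the same serum-free medium at pH 6.4 or pH 7.4 for 4 h or 12 h. A further sample of each line was taken before this treatment. Each of the 10 line and condition groups had 1 array, hybridised with RNA mixed from 4 separate cultures. The study asked which genes TDAG8 regulates in cultured cells, so the comparisons are between the lines, between the pH values, between the times, and between the pH responses of the lines and of the times.

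Vascular endothelial growth factors (VEGFs) are secreted proteins that bind receptor tyrosine kinases on blood and lymphatic endothelial cells. Vegfa drives blood vessel growth through the receptor Kdr, Vegfb and Pgf bind Flt1, and Vegfc and Vegfd act through Flt4 on lymphatic vessels. Once cleaved by proteases, Vegfc also acts on Kdr. Angpt1 and Angpt2 are ligands of the endothelial receptor Tek. Angpt1 activates it and stabilises vessels, whereas Angpt2 can oppose that action. Angptl4 is a secreted inhibitor of lipoprotein lipase with effects on vessels, Fgf2 is a basic fibroblast growth factor and Hgf is the ligand of the receptor Met. In tumours these factors are secreted by cancer and stromal cells, and the transcription of several of them responds to low oxygen.

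Values are given as the deposited signal of a probe set, a linear intensity scaled to a common level on every array, and the level of one probe set is not comparable with that of another. Differences are on the log2(signal + 2.4) scale after quantile normalisation, so the change of low genes is understated. The 12161 genes with a mean at or above a signal of about 6.6 were tested with limma, with Benjamini-Hochberg adjustment over all of them and a threshold of 0.05. Because each group had 1 array, matched pairs of arrays stood in for replicates, and the p-values reflect no more than the variation among these arrays. Nothing in them covers the spread between cultures, which pooling removed. The 8 genes other than Fgf2 and Hgf passed the filter. The probe set for Gpr65 read 0.3 to 5.3 on the 10 arrays, below the filter in both lines, so it gave no check of the line labels. The epithelial keratin gene Krt8 read 1242 to 2647.9, but the epithelial cadherin gene Cdh1 read at most 5.3. Lum, a connective tissue proteoglycan gene among the fibroblast markers, read 708.4 to 3963.8, but Col1a1 and Fap of the same list read at most 6.4 and 5.3. The endothelial gene Pecam1 (at most 6.6) and the leukocyte gene Ptprc (at most 6.3) were at or under the level of the filter. On the same lists the endothelial gene Esam (28.3 to 97) and the leukocyte genes Cd14 (37 to 71.7) and Csf1r (24 to 35.2) read above it. Of the markers on the array, 4 of 10 endothelial and 1 of 8 leukocyte ones were under the filter on every array.

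After 12 h at pH 6.4, Vegfd signal was 5.3-fold to 5.36-fold below its level at pH 7.4 in both lines. Vegfb, Angpt1, Angpt2 and Angptl4 were also lower at 12 h, and none of the factors passed the test in the direction of a rise. Between the lines, Angpt1 was higher in the TDAG8 line. No difference between the lines in their response to pH was called for any factor.

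Vegfd encodes a VEGF known for its action on lymphatic vessels. Its probe set 1449528_at read 295.4 before treatment in the TDAG8 line, then 308.4 and 443.5 after 4 h and 12 h at pH 7.4 and 265.5 and 83.7 after 4 h and 12 h at pH 6.4. The control line gave 277.8 before treatment, 272 and 344.5 at pH 7.4, and 225.4 and 64.3 at pH 6.4, in the same order of times. The arrays at pH 6.4 for 12 h were thus the lowest of the 10, and the next lowest was the control line at pH 6.4 for 4 h. At pH 7.4 the signal at 12 h was above that before treatment in both lines, so the gap at 12 h combines a higher level at pH 7.4 and a lower one at pH 6.4.

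The difference between pH 6.4 and pH 7.4 at 12 h was -2.38 for the TDAG8 line and -2.32 for the control line, a 5.3-fold and 5.36-fold lower deposited signal. At 4 h it was -0.16 in each line. A smaller share of cells with Vegfd RNA and less of it per cell cannot be told apart in these extracts, here or for the other factors. In the fit Vegfd fell by 2.35 at 12 h (SE 0.10, 95% interval -2.64 to -2.06, adjusted p = 0.0161), and at 4 h the difference of -0.16 (SE 0.10, adjusted p = 0.379) did not pass. Ranked by p-value at 12 h, Vegfd was in place 6 of 12161 genes. The other Vegfd probe sets were also lowest on the arrays at pH 6.4 for 12 h. Probe set 1438953_at read 325.3 and 250.2 at pH 7.4 for 12 h in the TDAG8 and control lines and 40.2 and 14.5 at pH 6.4 for 12 h. Probe set 1438954_x_at read 340.2 and 296.7 against 40.6 and 32.3. They differed at 12 h by -3.34 (SE 0.25) and -2.96 (SE 0.12), and all 3 probe sets had an adjusted p of 0.0175 when each was tested on its own. Over the 10 arrays the 3 probe sets correlated at Pearson r = 0.98 with each other, which describes arrays of the same RNA pools.

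Over both times together the Vegfd difference of -1.26 (SE 0.47, adjusted p = 0.14) did not pass. The change in the pH response from 4 h to 12 h was -2.19 (SE 0.15, 95% interval -2.6 to -1.79), with an adjusted p of 0.0993 that did not pass, since 0 of 12161 genes (0%) were called in that comparison. There 3135 genes had an unadjusted p under 0.05, and Vegfd was in place 7 by p-value. With eBayes trend and robust settings the adjusted p for Vegfd was 0.000758, with a filter at the 60th percentile 0.0203, and it was 0.335 at most over the alternatives tried.

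The window of 250 bases upstream of the Vegfd start site (chrX:164373272-164373521, plus strand, RefSeq on GRCm38.p6) is shown beside that of Vegfb (chr19:6987652-6987901, minus strand) because both genes fell at 12 h and their windows differ in base composition, with 42.4% G and C for Vegfd and 76.4% for Vegfb. The median over 32851 promoters of the table was 52.4%. Capitals mark GCGTG on either strand, the core of a hypoxia response element.
Vegfd: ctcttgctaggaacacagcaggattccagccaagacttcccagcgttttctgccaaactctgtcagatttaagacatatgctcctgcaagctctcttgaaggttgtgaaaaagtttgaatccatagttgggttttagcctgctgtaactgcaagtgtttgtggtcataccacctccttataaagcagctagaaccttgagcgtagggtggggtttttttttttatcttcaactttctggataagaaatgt
Vegfb: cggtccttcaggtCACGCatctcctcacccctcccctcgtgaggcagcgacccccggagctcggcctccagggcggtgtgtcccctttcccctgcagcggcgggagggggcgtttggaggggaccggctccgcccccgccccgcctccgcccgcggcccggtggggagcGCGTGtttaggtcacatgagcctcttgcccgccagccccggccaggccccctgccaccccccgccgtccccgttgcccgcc
Both strands were searched for ACGTG and GCGTG, the hypoxia response cores, for the cAMP response element TGACGTCA and its core TGACG, and for the AP-1 motif TGANTCA. The element TGACGTCA contains TGACG. The Vegfd window held 0 matches to these letters and the Vegfb window held 2, both to GCGTG. Of all promoters in the table, 16.6% held ACGTG, 28.2% GCGTG, 1.5% TGACGTCA, 17.8% TGACG and 6.7% TGANTCA. The table had windows for 7 of the 10 genes, and Angpt1, Angpt2 and Angptl4 were not among them.

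**Figure D1:**
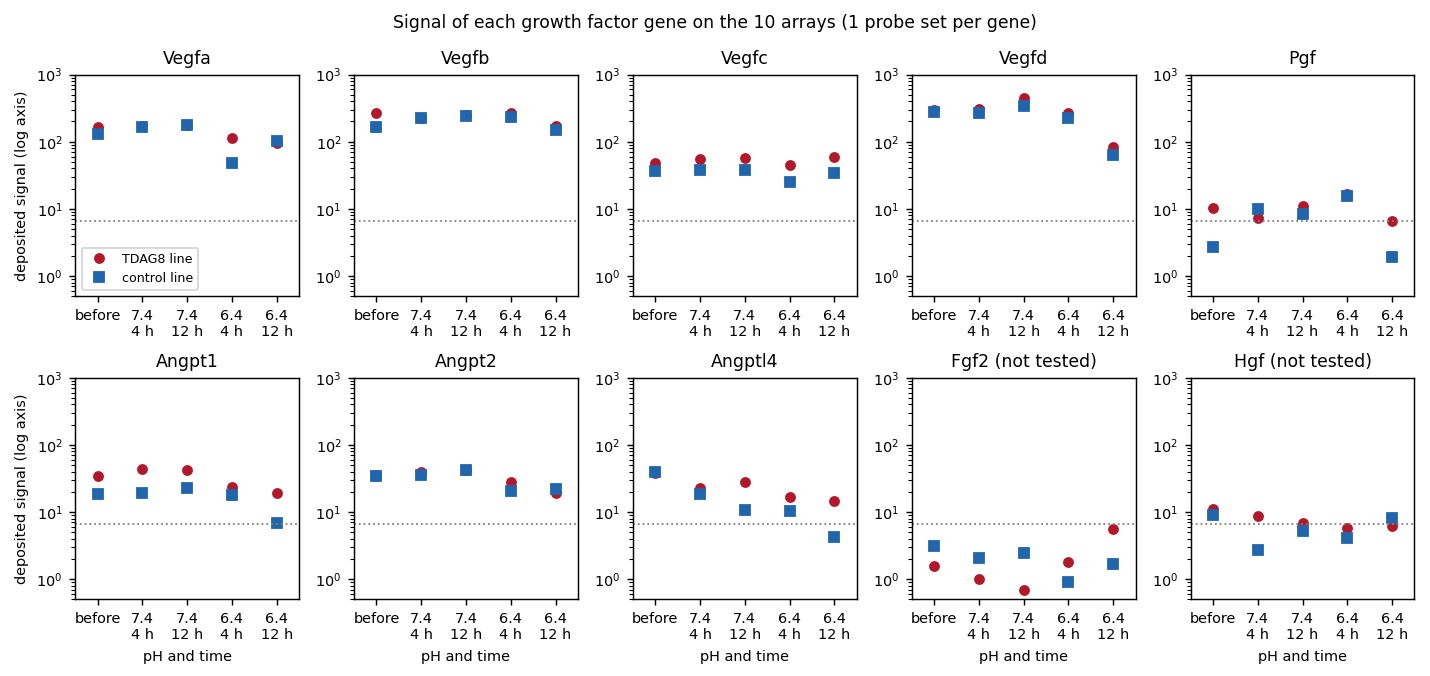
Deposited signal (log axis) of each of the 10 genes on the 10 arrays, by pH and time, with red circles for the TDAG8 line, blue squares for the control line and a dotted line at the filter signal of 6.6. Vegfd at pH 6.4 for 12 h lies at 83.7 and 64.3, below its other 8 arrays, and Fgf2 stays under the line on all arrays.

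Vegfb encodes a ligand of Flt1 that is linked to metabolism and cell survival more than to vessel sprouting. It read 271.2 before treatment in the TDAG8 line, 228 and 246 at pH 7.4 for 4 h and 12 h, and 266 and 170.7 at pH 6.4 for 4 h and 12 h. The control line read 168.2 before treatment, 225.2 and 241.4 at pH 7.4, then 234.2 and 151.6 at pH 6.4. The lowest 3 arrays were thus those at pH 6.4 for 12 h and the control line before treatment. The pH difference was positive at 4 h in both lines (0.29 and 0.17) and negative at 12 h in both (-0.57 and -0.65). Vegfb fell at 12 h by 0.61 (SE 0.11, adjusted p = 0.032), a 1.53-fold change. The difference at 4 h of 0.23 (SE 0.11, adjusted p = 0.251) did not pass. When each array was centred on its median instead of quantile normalised, the 12 h difference was -0.44 and its adjusted p 0.146.

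Vegfa is the main VEGF of blood vessel growth, and its 2 probe sets disagreed. Probe set 1420909_at read 168.1 before treatment in the TDAG8 line, 172.1 and 178.7 at pH 7.4 for 4 h and 12 h, and 113.8 and 95.7 at pH 6.4. The control line read 131.1 before treatment, 165.3 and 177.2 at pH 7.4, and 48.3 and 103.7 at pH 6.4. All 4 arrays at pH 6.4 were below all 4 at pH 7.4, and the control line at pH 6.4 for 4 h was the lowest. This probe set differed by -0.92 over both times (SE 0.21, 95% interval -1.45 to -0.4, adjusted p = 0.0524), which missed the threshold. It differed by -1.05 at 4 h (adjusted p = 0.127) and -0.80 at 12 h (adjusted p = 0.141), also not called. At each of these times 2 of 13 alternatives called it. The over-both-times adjusted p ranged from 0.0174 to 0.245 over the alternatives, 7 of 15 of which called it.

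The second Vegfa probe set, 1451959_a_at, whose suffix marks several transcripts of 1 gene, read 69.7 to 129.5 with a median of 79.2. Its pH differences were 0.93 and -0.43 at 4 h and 12 h for the TDAG8 line, and 0.01 and 0.13 for the control line. Its highest array was the TDAG8 line at pH 6.4 for 4 h and its lowest the same line at pH 6.4 for 12 h. It differed by 0.16 (SE 0.23, adjusted p = 0.675) over both times, and the 2 probe sets correlated at r = 0.08 over the 10 arrays. With the mean of both probe sets the Vegfa difference was -0.38 (adjusted p = 0.245).

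Vegfc, the closest relative of Vegfd, showed no called pH response. Its probe set 1440739_at read 48.6 before treatment in the TDAG8 line, 54.6 and 57.8 at pH 7.4 for 4 h and 12 h, and 44.8 and 58.6 at pH 6.4. The control line read 36.7 before treatment, 37.6 and 37.4 at pH 7.4, and 25.5 and 33.8 at pH 6.4. Every TDAG8 array was above every control array. The pH difference was 0.09 at 12 h (SE 0.14, 95% interval -0.29 to 0.47, adjusted p = 0.667) and -0.34 at 4 h (SE 0.14, adjusted p = 0.202). Beside the fall in Vegfd at 12 h, the interval for Vegfc did not reach below -0.29. The other Vegfc probe sets had 12 h differences of -0.22 and -0.55 and did not pass either. All 3 Vegfc probe sets, like 1420909_at of Vegfa, had their lowest signal on the control array at pH 6.4 for 4 h (25.5, 14.2 and 9.6).

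**Figure D2:**
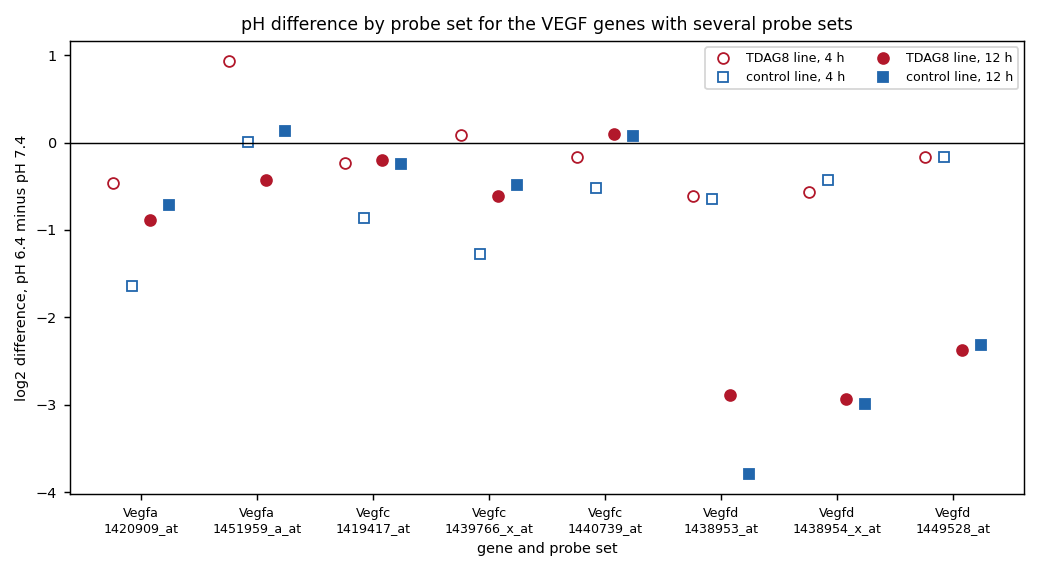
Log2 difference between pH 6.4 and pH 7.4 for each probe set of Vegfa, Vegfc and Vegfd, in the 4 matched pairs, with open symbols for 4 h and filled symbols for 12 h. The 3 Vegfd probe sets lie between -2.32 and -3.79 at 12 h in both lines, while the second Vegfa probe set has pairs on either side of 0.

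Pgf encodes placental growth factor, a ligand of Flt1, and lay near the level of the filter. It read 10.2 before treatment in the TDAG8 line, 7.2 and 11 at pH 7.4 for 4 h and 12 h, and 16.9 and 6.6 at pH 6.4. The control line read 2.7 before treatment, 9.9 and 8.3 at pH 7.4, then 15.4 and 1.9 at pH 6.4. The highest 2 arrays were those at pH 6.4 for 4 h. In the 4 h pairs the pH difference was 1.08 and 0.35, and in the 12 h pairs -0.5 and -1.2. Neither the 4 h difference of 0.72 (SE 0.27, adjusted p = 0.181) nor the 12 h difference of -0.85 (SE 0.27, adjusted p = 0.0954) passed. As 3 arrays were at or under a signal of 6.6, these log2 values depend on the pseudocount.

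Angpt1, the activating ligand of Tek, read 34.5 before treatment in the TDAG8 line on probe set 1439066_at, 43.8 and 43 at pH 7.4 for 4 h and 12 h, and 24 and 19.5 at pH 6.4. In the control line it read 18.7 before treatment, 19.2 and 22.6 at pH 7.4, and 17.9 and 6.8 at pH 6.4. In each line the array at pH 6.4 for 12 h was the lowest. Angpt1 fell at 12 h by 1.10 (SE 0.20, adjusted p = 0.0318), with pair values of -0.9 and -1.29 in the TDAG8 and control lines. The 4 h difference of -0.45 (SE 0.20, adjusted p = 0.22) did not pass, nor did that over both times, -0.77 (SE 0.20, adjusted p = 0.0645). A second probe set, 1421441_at, read 0.9 and 0.4 at pH 6.4 for 12 h against 12.9 and 3.1 at pH 7.4. At 4 h it went the other way, with 9.9 and 8.6 at pH 6.4 against 5.3 and 5.1 at pH 7.4. Of its arrays 5 were under 6.6 and it was not tested.

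Angpt2, the context-dependent ligand of Tek, read 36 before treatment in the TDAG8 line, 38.9 and 41.7 at pH 7.4 for 4 h and 12 h, and 28.5 and 18.9 at pH 6.4. In the control line it read 34.7 before treatment, 35.3 and 42.5 at pH 7.4, and 20.8 and 21.9 at pH 6.4. All 4 arrays at pH 6.4 were below the 6 others, and the lines overlapped. Over both times Angpt2 fell by 0.66 (SE 0.14, 95% interval -1.01 to -0.32, adjusted p = 0.0439), lower in 4 of 4 pairs. It fell at 12 h by 0.80 (SE 0.16, adjusted p = 0.037), and the 4 h difference was -0.53 (SE 0.16, adjusted p = 0.124). The second probe set, 1459636_at, read at most 4 and was not tested, and with the mean of both probe sets the differences were -0.41 over both times (adjusted p = 0.198) and -0.3 at 12 h (adjusted p = 0.465).

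Angptl4, a target of the peroxisome proliferator-activated receptors (PPARs) and of hypoxia-inducible factors, had its highest signal before treatment in both lines. Probe set 1417130_s_at, whose suffix marks probes shared among transcripts, read 38.5 before treatment in the TDAG8 line, 23 and 27.7 at pH 7.4 for 4 h and 12 h, and 16.5 and 14.5 at pH 6.4. The control line read 39.1 before treatment, 18.4 and 10.8 at pH 7.4, then 10.3 and 4.2 at pH 6.4. Both arrays before treatment were above all 8 treated ones, a difference with 1 pair per line and no test. Over both times Angptl4 fell by 0.69 at pH 6.4 (SE 0.14, 95% interval -1.03 to -0.35, adjusted p = 0.0405), lower in 4 of 4 pairs. At 12 h it fell by 0.79 (SE 0.17, adjusted p = 0.0421), and at 4 h the difference was -0.59 (SE 0.17, adjusted p = 0.119). With a pseudocount of 32, which damps low signals, the 12 h difference was -0.25 (adjusted p = 0.0894), and with trend and robust settings its adjusted p was 0.102. The call over both times was lost under the same settings, with adjusted p-values of 0.0965 and 0.078, and without the block (adjusted p = 0.232). Its second probe set read at most 3.5.

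Fgf2 read 0.7 to 5.6 on the 10 arrays and was below the filter on each of them. Hgf had 3 probe sets, which read 2.7 to 11, 1.9 to 11.5 and 0.2 to 10.5 and had medians of 6.5, 4.15 and 1.2. Neither gene was tested, and no level can be ordered at these signals.

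**Figure D3:**
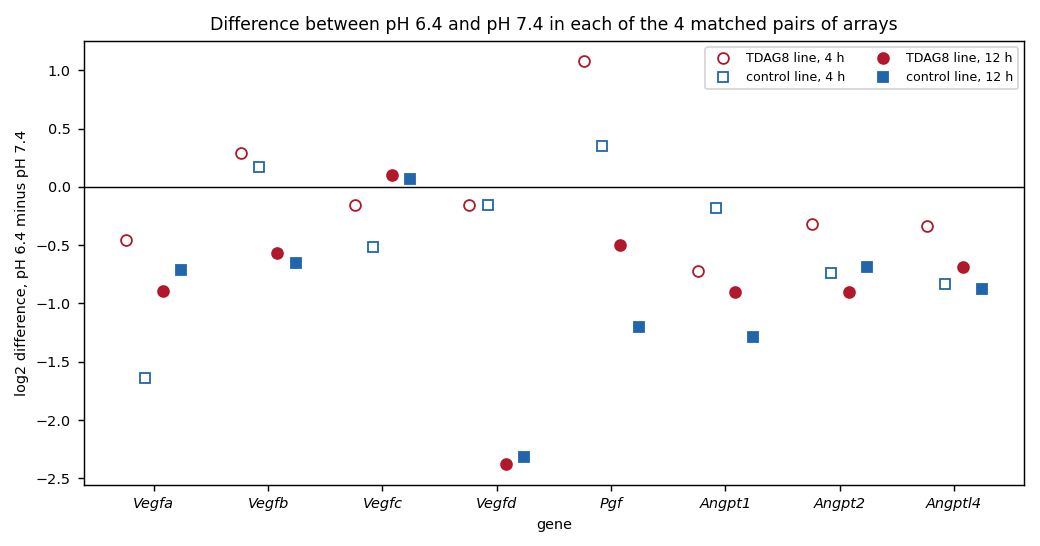
Log2 difference between pH 6.4 and pH 7.4 for the 8 tested genes in each of the 4 matched pairs, with open symbols for 4 h, filled symbols for 12 h, red for the TDAG8 line and blue for the control line. At 12 h, 7 of 8 genes are below 0 in both lines, with Vegfd at -2.38 and -2.32 and Vegfc near 0.

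Counted together, 5 of the 8 tested factors fell at 12 h (Vegfb, Vegfd, Angpt1, Angpt2 and Angptl4) and 0 rose. Of all 12161 genes, 23.4% were called at 12 h in either direction and 12.3% as lower. The median difference of the 8 factors at 12 h was -0.80, beside 0.02 over all genes tested. At 4 h 0 of 8 were called, where 4.65% of all genes were, and the median was -0.40. Over both times 2 of 8 were called, Angpt2 and Angptl4, both lower, where 10% of all genes were called and 5.56% as lower. The factors were chosen by name with earlier results of these arrays known, so these counts are a description.

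The calls at 12 h rest on the 2 pairs of arrays at that time. Without the TDAG8 pair or without the control pair at 12 h, 0 of 12161 genes passed, and the Vegfd difference was -2.32 (adjusted p = 0.0972) or -2.38 (adjusted p = 0.104). Without either 4 h pair Vegfd alone of the 8 passed (adjusted p = 0.0483). The 2 calls over both times were lost without any 1 of the 4 pairs, with adjusted p-values of 0.0774 to 0.137 for Angpt2 and 0.0744 to 0.135 for Angptl4.

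As single pairs of arrays, without a test, 1 of 8 factors (Vegfd) was lower by 1 or more on the log2 scale at pH 6.4 in the TDAG8 line at 12 h, as were 7.83% of all genes. In the control line at 12 h 3 of 8 were (Vegfd, Pgf and Angpt1), beside 8.69% of all genes. At 4 h the counts were 1 of 8 in the control line (Vegfa, -1.64), beside 6.04%, and 0 of 8 in the TDAG8 line, beside 5.7%. In that last pair Pgf was higher by 1.08.

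The comparison of the lines over 5 matched pairs asked which factors differed between the TDAG8 line and the control line whatever the pH. With 1 line for each construct, an effect of TDAG8 and any other difference between the lines cannot be told apart, here or for the lists below. Angpt1 was higher in the TDAG8 line by 0.86 (SE 0.13, 95% interval 0.55 to 1.16, adjusted p = 0.0457), a 1.81-fold difference seen in 5 of 5 pairs. Its signal was 34.5, 43.8, 43, 24 and 19.5 for the TDAG8 line, against 18.7, 19.2, 22.6, 17.9 and 6.8 for the control line (before treatment, pH 7.4 for 4 h and 12 h, pH 6.4 for 4 h and 12 h). The lines overlapped across conditions, since the TDAG8 array at pH 6.4 for 12 h was below the highest control array. It was 1 of 8 factors called, where 1.2% of all genes were called and 0.674% as higher. The call was lost without any 1 of the 5 pairs (difference 0.75 to 0.96, adjusted p = 0.081 to 0.155), with no filter (adjusted p = 0.133) and with the values as deposited (0.88, adjusted p = 0.0503). The other Angpt1 probe set, 1421441_at, was too low to be tested. Its line differences were 0.13, -0.17, 1.51, 0.18 and 0.25 in the same order of conditions. With the mean of both probe sets the difference was 0.62 (adjusted p = 0.109).

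Vegfc was higher in the TDAG8 line by 0.56 (SE 0.09, 95% interval 0.34 to 0.78), with an adjusted p of 0.0549 that missed the threshold, and in 5 of 5 pairs. The 3 Vegfc probe sets differed by 0.56, 0.58 and 0.56. With the values as deposited Vegfc was called (0.60, adjusted p = 0.0396) while Angpt1 was not, so the number of factors called stayed at 1 and the gene changed. Angptl4 differed by 0.65 (SE 0.24, adjusted p = 0.211), with pair values from -0.14 before treatment to 1.4 at pH 6.4 for 12 h. Vegfd (0.22), Vegfb (0.19), Vegfa (0.28), Pgf (0.48) and Angpt2 (0.04) did not pass.

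**Figure D4:**
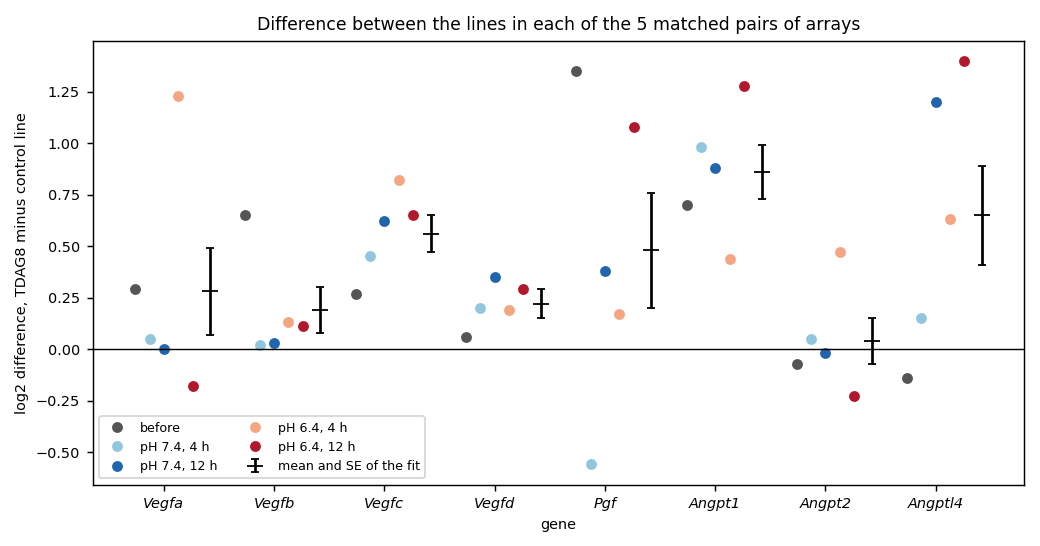
Log2 difference between the TDAG8 and control lines for the 8 tested genes in each of the 5 matched pairs (coloured points), with the mean and standard error of the fit in black. Angpt1 and Vegfc lie above 0 in all 5 pairs, with means of 0.86 and 0.56, and Vegfa has 1 pair at 1.23 and the others near 0.

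The question closest to the aim, whether the pH response differed between the lines, had 2 residual degrees of freedom. Of 12161 genes 0% were called, the smallest adjusted p was 1, and 339 genes had an unadjusted p under 0.05. For Vegfd the difference between the lines in the pH response was -0.03, with a 95% interval of -2.71 to 2.64. This fit had no term for the change of the pH response with time, so that change widened the interval. The single pairs gave -0.16 in each line at 4 h, and -2.38 and -2.32 in the TDAG8 and control lines at 12 h. With 1 pair per line and time, the spread of a line difference at 1 time cannot be estimated. The intervals were -0.59 to 1.59 for Vegfa, -0.67 to 1.07 for Vegfc, -1.24 to 1.08 for Angpt1, -0.73 to 0.94 for Angpt2 and -0.4 to 1.08 for Angptl4. Between 12 h and 4 h whatever the pH, 0% of genes were called, 1420 had an unadjusted p under 0.05, and the differences of the factors lay between -0.72 for Pgf and 0.20 for Vegfa.

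For the lists that follow, the shares over all genes at 12 h were 23.4% called and 12.3% called as lower, and between the lines 1.2% called. The receptors of these factors read low or were not called for the most part. Of 15 receptor genes 11 were tested. At 12 h 1 rose, Flt1, the receptor of Vegfb and Pgf, by 1.07 (SE 0.17, adjusted p = 0.0265), and 1 fell, Fgfr1, a receptor of Fgf2, by 0.76 (SE 0.15, adjusted p = 0.0367). At 12 h Flt1 read only 6 and 12.4 at pH 6.4 in the TDAG8 and control lines against 1 and 7.1 at pH 7.4, near the filter, and its highest signal, 13.3, was before treatment. Kdr read 1.9 to 14.5 and was not called, and Tek (at most 6.2) and Flt4 (at most 11.1) were not tested. Met, the Hgf receptor, read 198.7 to 295 with TDAG8 and 133.4 to 201.9 with the control vector, and was higher in the TDAG8 line by 0.68 (SE 0.09, adjusted p = 0.0427).

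Among genes for proteins that activate or release these factors, 4 of 10 tested fell at 12 h and 0 rose, where 12.3% of all genes were lower. Ccbe1, a secreted protein that assists the cleavage of Vegfc, was lower at pH 6.4 by 1.73 (SE 0.11, adjusted p = 0.0161). At 12 h it read 94.2 at pH 6.4 and 328.7 at pH 7.4 with TDAG8, against 161.7 before treatment. With the control vector it read 58.4 and 205, against 101.9 before treatment. Mmp14, a membrane-bound matrix metalloproteinase, was lower by 1.06 (SE 0.14, adjusted p = 0.0194). It read 968.8 and 1761.6 with TDAG8, against 1067.9 before treatment, and 540.8 and 1245 with the control vector, against 909.2. For both genes the gap thus combines a higher level at pH 7.4 and a lower one at pH 6.4 than before treatment. St14 (-1.76) and Mmp9 (-0.80) also fell but read at most 19.6 and 16.4. Ccbe1 was higher in the TDAG8 line by 0.60 (SE 0.06, adjusted p = 0.0211).

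The hypoxia-inducible factor list, which holds pathway genes and targets that often accompany Vegfa, had 10 of 24 tested genes lower and 0 higher at 12 h, with a median of -0.74, where 12.3% of all genes were lower and the median was 0.02. The leading ones were Bnip3, a mitophagy receptor gene (-1.43, SE 0.17, adjusted p = 0.018), Egln3, an oxygen-sensing prolyl hydroxylase gene (-1.38, SE 0.13, adjusted p = 0.0163), Bhlhe40, a transcriptional repressor gene (-1.25, SE 0.18, adjusted p = 0.0232), and Pdk1, a pyruvate dehydrogenase kinase gene (-1.2, SE 0.11, adjusted p = 0.0163). Egln3 read 950.2 and 914.6 at pH 7.4 for 12 h in the TDAG8 and control lines and 427.2 and 328.5 at pH 6.4. Over both times 8 of 24 were lower and 0 higher, beside 5.56% of all genes lower. At 4 h 2 of 24 were lower, Egln3 (-1.26) and Egln2 (-0.87), beside 4.65% of all genes called in either direction. Hif1a itself read 2758 to 3760.4. Of the 12 genes of the PPAR target list 6 were tested and 0 were called at 12 h, with a median of -0.3. With trend and robust settings 3 of the 6 were called as lower, where 4428 of 12161 genes were called. With a pseudocount of 32, 2 of the 6 were, where 4298 of 12152 genes were called. Angptl4 was not called at 12 h under either setting, and a link between it and this list was not tested.

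Of the other secreted angiogenic factors 5 of 23 tested genes were higher at 12 h and 2 lower, with a median of 0.32. Of all 12161 genes 23.4% were called at 12 h, 1353 as higher and 1490 as lower. Ccn1, a matricellular protein gene, rose by 3.65 (SE 0.59, adjusted p = 0.0269), and it read 338.2 and 674.2 at pH 6.4 for 12 h in the TDAG8 and control lines against 36.4 and 38.4 at pH 7.4. Hbegf, a ligand of the epidermal growth factor receptor, rose by 3.33 at 12 h (SE 0.24, adjusted p = 0.0161) and by 2.29 at 4 h (SE 0.24, adjusted p = 0.0381). Jag1, a Notch ligand gene, rose by 1.64, Tgfb2 by 1.62 and Ereg by 1.54 (adjusted p = 0.0499). Tgfb2 read only 14.4 and 22.6 at pH 6.4 for 12 h in the TDAG8 and control lines against 2.7 and 8.1 at pH 7.4. Lower were Fgf21 (-1.32), which read only 3.5 to 23.2, and Ptn (-0.76), the pleiotrophin gene. Ptn was higher in the TDAG8 line by 0.81 (SE 0.10, adjusted p = 0.0371). The fall in Vegfd and the rise in Ccn1 and Hbegf were thus present on the same arrays.

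Of 12 tested inhibitors of angiogenesis 1 was higher and 4 were lower at 12 h, where 23.4% of all genes were called and 12.3% as lower. Cxcl10, a chemokine gene, rose by 2.29 (SE 0.11, adjusted p = 0.0161) and was lower in the TDAG8 line (log2 difference -1.15, SE 0.11, adjusted p = 0.0217). Sema3a fell by 1.19, Spry1 by 1.16, Sema3f by 0.92 and Thbs2 by 0.78. Spry1 is an intracellular inhibitor of growth factor receptor signalling rather than a secreted one. Thbs2, a thrombospondin gene, was higher in the TDAG8 line by 0.73 (SE 0.09, adjusted p = 0.0351). At 12 h every one of these lists had 0 called genes without the TDAG8 pair or the control pair at that time, and without either 4 h pair 4 of 24 genes of the hypoxia list and 2 of 10 of the activation list were still lower. The differences between the lines named for Met, Ccbe1, Ptn, Cxcl10 and Thbs2 were lost in the same way, since these lists had 0 calls between the lines without any 1 of the 5 pairs, with no filter or with no block.

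Some markers of connective tissue were also lower at 12 h, where 23.4% of all genes were called and 12.3% as lower. Of 6 tested fibroblast markers 4 fell at 12 h, Pdgfrb (-2.13), Lum (-1.75), Dcn (-1.61) and Pdgfra (-1.52). Col1a2 (-0.02), which read only 6.7 to 20, and Col3a1 (-0.26), which read 4432.7 to 6730.4, were not called. Dcn read 425.7 and 330 at pH 6.4 for 12 h in the TDAG8 and control lines and 1309 and 923.3 at pH 7.4. Before treatment it read 474 and 370.2, so its gap was mostly a higher level at pH 7.4. The fibroblast list summed to 7430.2 to 9864.9 at pH 6.4 and 9773.8 to 13469.3 at pH 7.4. Of 5 tested epithelial markers 2 fell at 12 h, the tight junction genes Tjp1 (-2.58) and Ocln (-1.09). The endothelial markers had 0 of 4 called and summed to 73.8 to 115 at pH 6.4 and 88 to 141 at pH 7.4. Both sums add probe sets whose levels are not comparable, so the genes of highest signal weigh most. These were Col3a1 and Lum (708.4 to 3963.8) for the fibroblast list and Esam (28.3 to 97) for the endothelial one. Of 5 tested leukocyte markers 1 rose, Cd68 (0.66). The part of these changes in the results for the growth factors was not tested.

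**Figure D5:**
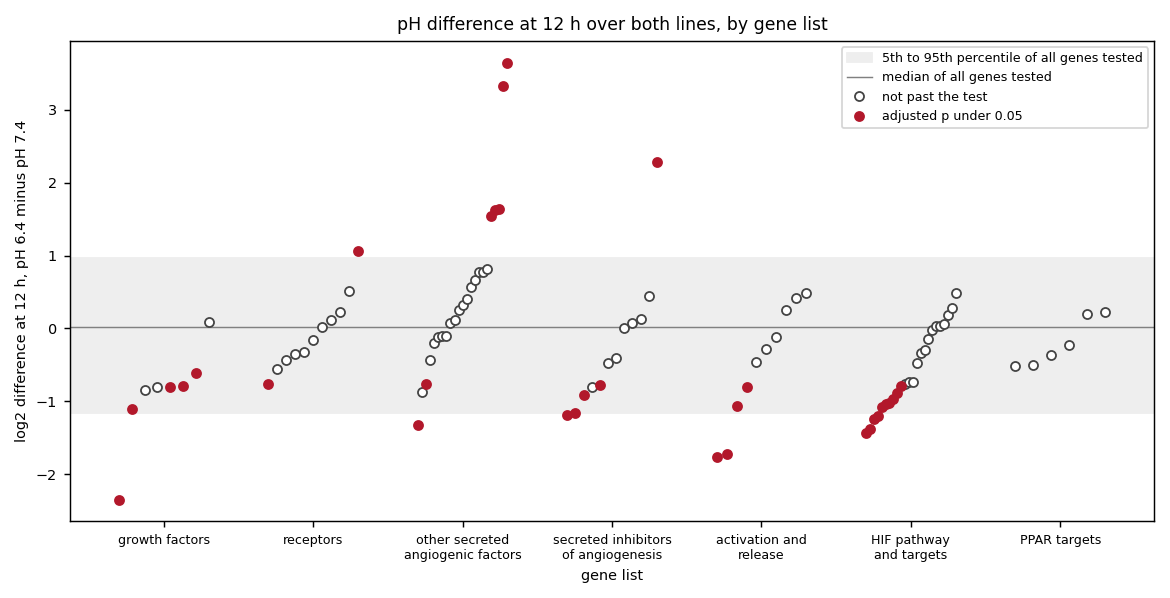
Log2 difference between pH 6.4 and pH 7.4 at 12 h over both lines for each tested gene of the growth factors and 6 other lists, without the cell type markers, with filled points for an adjusted p under 0.05, a grey line at the median of all genes and a grey band from their 5th to 95th percentile (-1.16 to 0.97). Vegfd at -2.35 is the lowest point among these 7 lists, and Ccn1 at 3.65 and Hbegf at 3.33 are the highest.

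The genes whose log2 values over the 10 arrays were most like those of the called factors are named as a description, since all arrays are shared. For Vegfd they were Parp3 (Pearson r = 0.989), Acp2 (0.989) and Mbnl3 (0.988). Parp3 read 241.6 to 980.8 over the arrays and Acp2 22.2 to 181.2. For Angpt2 they were Gpr155 (0.986), Fam76b (0.983) and Srgap3 (0.981), and for Angpt1 Enpp4 (0.961), Naglu (0.958) and Tnfrsf23 (0.955). For Vegfb they were Mprip (0.944), Hmgn5 (0.929) and Selenon (0.929), and for Angptl4 Smoc1 (0.931), Nr2f6 (0.916) and Abhd5 (0.903). Among the factors themselves the pairs most alike were Vegfa with Angpt2 (r = 0.89) and Vegfb with Pgf (0.87), whereas Vegfc and Vegfd had an r of -0.03.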

How the data were processed

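RNA of 2 lines in 5 conditions was hybridised to 10 Affymetrix Mouse430 2.0 arrays, 1 per group, each from 4 pooled cultures and 2 µg of RNA, per the labels' protocols. The values are the deposited signal, a linear intensity per probe set, and the authors' summary method is not given in the sources used here. As a check, the deposited table has a 2% trimmed mean of 100 on every array and array medians between 11.7 and 13.8, so the arrays had been scaled to a common level. Precision is limited by having 10 arrays.

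Of 45101 probe sets, 34945 had 1 gene symbol and were used. The 932 with several symbols, the 9160 with none and 64 control probe sets were left out. Values were quantile normalised and taken as log2(signal + 2.4), with 2.4 set at the 20th percentile of the table. Before this step the medians of the arrays differed by up to 0.2 in log2 units. The probe set of highest mean stood for each gene, and genes at or above the 40th percentile (log2 3.17) were tested, 12161 of 18193. limma 3.58.1 in R 4.3.3 (lmFit, eBayes, moderated test, Benjamini-Hochberg adjustment) was run on matched pairs as blocks. The lines had 5 pairs and 4 residual degrees of freedom, pH and time 4 pairs and 3, and the interactions 2. The pH responses at 4 h and at 12 h came from the fit with the pH by time term. The fits were tested on simulated data.

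All 10 factors are named, then at most 4 called genes per other list and comparison with the largest difference, and the 3 genes most alike each called factor. Ereg and Thbs2 at 12 h were named beyond the 4 of their lists. Other genes named show the other direction of a list or the level of a receptor or marker. These additional genes were chosen after their values were seen. The factors, lists, tests and alternatives were chosen with earlier results of these data known. The alternatives for the pH response at each time were added after the data were seen. Promoter windows came from RefSeq on GRCm38.p6. Protein sequences are not used here.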

Additional observations from a re-analysis of the deposited data

Results flagged for a closer look

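For 3 factors the pH difference had one sign in both lines at 4 h and the opposite sign in both lines at 12 h. The share of all genes with this pattern was not counted, so the number of factors is a description alone. Vegfb had pair values of 0.29 and 0.17 at 4 h in the TDAG8 and control lines and -0.57 and -0.65 at 12 h, a change of -0.84 (SE 0.15, adjusted p = 0.0993 by limma). Pgf had 1.08 and 0.35 at 4 h and -0.5 and -1.2 at 12 h, a change of -1.57 (SE 0.38, adjusted p = 0.118 by limma), with signals near the filter. Vegfc had -0.16 and -0.52 at 4 h and 0.1 and 0.07 at 12 h, a change of 0.43 (SE 0.2, adjusted p = 0.26 by limma), on probe set 1440739_at. The other Vegfc probe sets did not show the opposite signs, with -0.23 and -0.86 at 4 h and -0.2 and -0.24 at 12 h for 1419417_at, and 0.09 and -1.27 at 4 h and -0.61 and -0.49 at 12 h for 1439766_x_at. None of the 3 changes passed the test of the difference itself.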

How the results depend on the processing

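The number of factors called between the lines, 1, was 0 with no filter, a pseudocount of 0.5 (5th percentile), probe sets averaged per gene, each probe set on its own, no block or the treated arrays alone, and 2 (Vegfc and Angpt1) with a pseudocount of 7.7 (40th percentile) or 32 or with trend and robust. It was 0 to 0 with a pair left out. The number for pH over both times, 2, was 0 with no filter or the mean of all probe sets, 4 with a pseudocount of 7.7 and 5 with pH by time added, and 0 to 0 with a pair left out. It was 3 (Vegfa added) with values as deposited or each probe set on its own. Vegfa took the place of Angptl4 with a pseudocount of 32, trend and robust, no block or a filter at the 60th percentile, where Angptl4 was not tested. For the pH response between 4 h and 12 h, 0 became 2 (Vegfb and Vegfd) with a filter at the 60th percentile, a pseudocount of 32 or trend and robust. For pH at 4 h, 0 became 1 (Vegfa) with a pseudocount of 32 or trend and robust. For pH at 12 h, 5 became 0 with no filter, 3 when genes had to reach the 60th percentile (which leaves 5 factors) and 3 with probe sets averaged, and 0 to 1 with a pair left out. It was 4, without Vegfb, with arrays centred on the median. With a pseudocount of 32 or trend and robust it stayed at 5, with Vegfa called in place of Angptl4. The numbers for the pH response between the lines and for 12 h against 4 h stayed at 0 under all alternatives run. The causes were not tested.

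Over all genes, the 146 calls between the lines ranged from 4 to 881, the 1220 for pH from 0 to 3397, the 566 at 4 h from 0 to 2421, the 2843 at 12 h from 0 to 4428 and the 0 for the change with time from 0 to 1836. The share of calls that were higher moved with scaling, for pH from 44.6% to 33.1% with the values as deposited and 31.9% with arrays centred on the median, and for the lines from 56.2% to 67.9% and 65.9%. Centring on the median moved the median of all genes to 0.118 at 12 h and 0.222 for the change with time, where Vegfd differed by -2.23 and -1.93. Vegfd at 12 h kept its direction under all 13 alternatives (-2.88 to -1.99) and was called under 10. No paired analysis by replicate number was possible because the groups have 1 array each and the labels carry no replicate numbers. Signals near 6.6, as for Pgf and Angptl4, limit what can be told of low genes.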
